A study of Mus musculus with 3 samples.

Results

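*H19*, *Meg3* and *Zdbf2* belong to imprinted clusters with regions that are methylated on the paternal allele. At the control regions of *H19* and *Meg3*, methylation from the male germ line is carried to the paternal allele of the embryo. DNA methylation at 4 regions of these clusters was examined in spermatogonia, the mitotic germ cells of the testis. The regions were set by distance from the RefSeq gene starts, but the genes were chosen with earlier results of these data known. The regions hold 414 of the 21867550 CpG sites of the mm10 reference. The *H19* imprinting control region (ICR) was taken from 2 to 4 kb upstream of the *H19* start, the intergenic differentially methylated region of *Meg3* (IG-DMR) from 11 to 16 kb upstream, the *Meg3* promoter within 1 kb on either side of the start, and the *Zdbf2* DMR from 8 to 17 kb upstream.

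WT, *Pld6* KO and *Dnmt3L* KO mice of the strain C57BL6/J were compared at postnatal day 7, and the spermatogonia of all groups had been sorted with an antibody against EpCAM. *Pld6* encodes a mitochondrial protein needed to make piRNAs, small RNAs that direct silencing of retrotransposons in fetal male germ cells. *Dnmt3l* encodes a cofactor of the enzymes that set new methylation in these cells. In whole-genome bisulfite sequencing, a read yields 1 call, methylated or unmethylated, for every CpG site under it, and a methylation level is the fraction of calls that are methylated. The paper's methods speak of replicates, with heterozygous animals among those counted as WT. Here 1 file per genotype was analysed, labelled as replicate 1 and treated as 1 library. Whether a file pools several libraries, and which WT animals it holds, is not given in the sources used here, so that genotype and library cannot be told apart in any comparison. Both mutant lines had been backcrossed to this strain.

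The germ line writes the marks of the *H19* ICR and the IG-DMR before birth, after the inherited methylation of both alleles has been erased. On the maternal allele the unmethylated *H19* ICR binds CTCF, an insulator protein that keeps shared enhancers from *Igf2*, a growth factor gene, so that *H19*, a noncoding RNA gene, is expressed instead. The IG-DMR governs *Meg3* and other noncoding RNA genes of the maternal allele and the protein-coding genes *Dlk1*, *Rtl1* and *Dio3* of the paternal allele. *Zdbf2*, a zinc finger gene, is expressed from the paternal allele. The zinc finger protein ZFP57 binds methylated TGCCGC in the embryo and keeps imprints from being lost after fertilization. Reads from the maternal and the paternal allele were not told apart here, and each level is over both.

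The regions lie in different settings. The *H19* ICR, chr7:142580147-142582146, is intergenic, holds 60 CpG sites and overlaps by 1899 bp the imprinting control region that RefSeq annotates at chr7:142580248-142582833. The IG-DMR, chr12:109524996-109529995, holds 130 CpG sites (26.0 per kb), lies outside curated genes, and is inside the predicted noncoding gene *Gm34081*. The *Meg3* promoter, chr12:109539996-109541995, holds 69 sites (34.5 per kb) and the 104-bp first exon of *Meg3*. The *Zdbf2* DMR, chr1:63256269-63265268, has the fewest sites per length, 155 sites or 17.2 per kb. It is upstream of the *Zdbf2* start used here, but inside the longer *Zdbf2* transcripts that begin 72911 bp further upstream, almost all of it intronic with a single 57-bp exon. Interspersed and simple repeats make up 20.7% of the *Zdbf2* DMR, against 2.15% of the *H19* ICR and 9.30% of the IG-DMR.

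Because CTCF contacts the *H19* ICR through DNA that is methylated on one parental allele only, the matches of the CTCF core CGCGNGGNG (searched on both strands) are shown on the strand of *H19*, the minus strand, with the match in capitals. The first is at chr7:142580288-142580346, the second at chr7:142580743-142580801 and the third at chr7:142582013-142582071 of mm10, and all 3 fall in CTCF binding sites that RefSeq annotates, named m4, m3 and m1.
H19 match 1: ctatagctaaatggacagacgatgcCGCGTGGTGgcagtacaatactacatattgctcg
H19 match 2: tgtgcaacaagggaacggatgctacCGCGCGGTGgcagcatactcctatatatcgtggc
H19 match 3: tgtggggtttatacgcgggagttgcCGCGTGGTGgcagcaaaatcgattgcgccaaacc

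In the other regions, the 100 bases richest in CpG sites are shown on the plus strand with each CpG in capitals, to show how densely the sites that can carry methylation are packed there. They are at chr12:109528354-109528453 in the IG-DMR, with 18 CpG sites, at chr12:109541714-109541813 in the *Meg3* promoter, with 7, and at chr1:63264698-63264797 in the *Zdbf2* DMR, with 11.
Meg3 IG-DMR: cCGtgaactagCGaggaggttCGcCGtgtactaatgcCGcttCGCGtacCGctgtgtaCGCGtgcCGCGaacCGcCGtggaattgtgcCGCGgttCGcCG
Meg3 promoter: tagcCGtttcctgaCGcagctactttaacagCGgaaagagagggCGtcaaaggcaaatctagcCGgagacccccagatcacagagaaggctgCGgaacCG
Zdbf2 DMR: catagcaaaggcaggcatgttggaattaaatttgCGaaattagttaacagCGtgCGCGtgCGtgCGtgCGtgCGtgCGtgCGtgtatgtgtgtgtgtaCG

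The WT, *Pld6* KO and *Dnmt3L* KO libraries held 43757722, 64076569 and 19289688 calls, or 2.0, 2.92 and 0.879 calls per CpG site, with pooled levels of 0.703, 0.722 and 0.301 over all sites. In the 4 regions together, calls were present at 326, 372 and 227 of the 414 sites. As a check for somatic cells in the sort, which carry methylation on the maternal allele of promoters imprinted in the egg, 10 such promoters had pooled levels of 0.0469 in WT, 0.0701 in *Pld6* KO and 0.0204 for *Dnmt3L* KO. Their single levels ran from 0 to 0.440 (*Snrpn*, 25 calls) in WT, to 0.148 in *Pld6* KO and to 0.0714 in *Dnmt3L* KO. The part of these values in the results below was not tested.

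The *H19* ICR, the IG-DMR and the *Zdbf2* DMR were mostly methylated in WT, whereas the *Meg3* promoter was not. At the *H19* ICR, 158 of 184 calls were methylated in WT, a level of 0.859 (95% Wilson interval 0.801 to 0.902). At the IG-DMR it was 255 of 296 calls, 0.861 (0.817 to 0.896). The *Zdbf2* DMR was lower, with 207 of 296 calls, 0.699 (0.645 to 0.749). The *Meg3* promoter had only 16 of 124 calls methylated, 0.129 (0.0810 to 0.199). The intervals cover counting error only and leave aside that neighbouring calls often come from 1 read, so that they are too narrow.

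In *Pld6* KO the levels over all sites with calls were close to those of WT, and none of them was lower. The *H19* ICR had 259 of 293 calls methylated, 0.884 (0.842 to 0.916), the IG-DMR 357 of 396, 0.902 (0.868 to 0.927), and the *Zdbf2* DMR 400 of 522, 0.766 (0.728 to 0.801). The *Meg3* promoter had 36 of 196, 0.184 (0.136 to 0.244).

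In *Dnmt3L* KO all 4 regions had lower levels than in WT, by differing amounts. At the *H19* ICR, 12 of 81 calls were methylated, 0.148 (0.0868 to 0.241). The *Zdbf2* DMR was alike, with 14 of 106 calls, 0.132 (0.0803 to 0.210). At the IG-DMR, 59 of 157 calls were still methylated, 0.376 (0.304 to 0.454). The *Meg3* promoter had 0 of 51 calls methylated, with an upper bound of 0.0700. The ratio of the *Dnmt3L* KO to the WT level was thus 0.173 at the *H19* ICR, 0.189 at the *Zdbf2* DMR and 0.436 at the IG-DMR. The *Dnmt3L* KO levels depended on which sites were taken: with sites at least 80 bp apart the *H19* ICR was at 0.280 and the IG-DMR at 0.458, and with at least 3 calls per site the IG-DMR was at 0.250 and the *Zdbf2* DMR at 0.

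**Figure D1:**
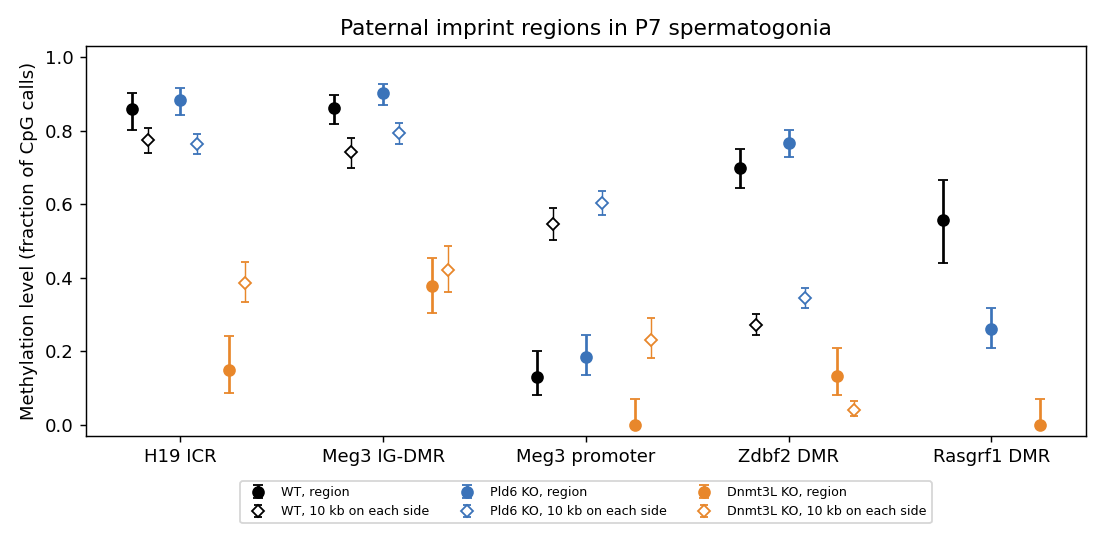
Methylation levels (y axis, fraction of CpG calls) of the 4 regions and of the *Rasgrf1* DMR in each library. Filled circles are the regions and open diamonds the 10 kb on each side of them (not computed for *Rasgrf1*), both with 95% Wilson intervals. The *Dnmt3L* KO level of the IG-DMR, 0.376, lies above those of the other regions in that library.

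Differences between libraries were examined by two-sided Fisher's exact tests on the calls, with Benjamini-Hochberg adjustment over the 12 comparisons (given as the adjusted exact p). These tests compare 2 libraries, not genotypes, and their p-values are too small for the same reason. The level in WT exceeded that in *Dnmt3L* KO by 0.711 at the *H19* ICR (95% Newcombe interval 0.601 to 0.785, adjusted exact p = 1.01e-28). The difference was 0.486 at the IG-DMR (0.396 to 0.566, adjusted exact p = 1.06e-25) and 0.567 at the *Zdbf2* DMR (0.473 to 0.639, adjusted exact p = 9.18e-25). The *Meg3* promoter differed by 0.129 (0.0441 to 0.199, adjusted exact p = 0.00549), which was lost (adjusted exact p = 0.104) when only sites at least 80 bp apart were used so that no read was counted at neighbouring sites. *Pld6* KO exceeded *Dnmt3L* KO by 0.736 at the *H19* ICR, 0.526 at the IG-DMR, 0.634 at the *Zdbf2* DMR and 0.184 at the *Meg3* promoter (adjusted exact p = 1.64e-35, 7.46e-35, 1.07e-34 and 0.000346). The last of these was also lost with sites at least 80 bp apart (adjusted exact p = 0.0532).

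Between WT and *Pld6* KO, none of the 4 regions passed the threshold of 0.05 with all sites and the bounds given above. WT minus *Pld6* KO was -0.0253 at the *H19* ICR (interval -0.0911 to 0.0347, adjusted exact p = 0.478) and -0.0400 at the IG-DMR (-0.0909 to 0.00811, adjusted exact p = 0.142). It was -0.0546 at the *Meg3* promoter (-0.132 to 0.0305, adjusted exact p = 0.236) and -0.0670 at the *Zdbf2* DMR (-0.131 to -0.00452, adjusted exact p = 0.0504). The intervals allow a level in *Pld6* KO that is lower than in WT by at most 0.0347 at the *H19* ICR and 0.00811 at the IG-DMR, counting error only. At the *H19* ICR the direction depended on the bounds: in its middle 1 kb, WT was higher by 0.136 (adjusted exact p = 0.0238). With sites covered in all libraries, WT minus *Pld6* KO changed sign at the *Meg3* promoter and the *Zdbf2* DMR without passing the threshold. A mean of site levels also turned it at the *Meg3* promoter. Other choices gave calls with *Pld6* KO higher. WT minus *Pld6* KO was -0.127 at the *Zdbf2* DMR and -0.119 at the *Meg3* promoter with at least 3 calls per site (adjusted exact p = 0.00326 and 0.0225), and -0.0553 at the IG-DMR and -0.145 at the *Meg3* promoter with regions extended by 500 bp (adjusted exact p = 0.0299 and 0.000168).

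*Rasgrf1*, the other known paternally methylated locus, gave another picture in *Pld6* KO. The region from 28 to 32 kb upstream of its start had levels of 0.556 in WT (40 of 72 calls), 0.259 in *Pld6* KO (62 of 239) and, in *Dnmt3L* KO, 0 (0 of 51). In the *Pld6* KO library it was lower than the *H19* ICR by 0.625, than the IG-DMR by 0.642 and than the *Zdbf2* DMR by 0.507 (Fisher's exact test adjusted over 12 comparisons, adjusted exact p = 6.61e-51, 1.28e-62 and 7.60e-40), and it was also lower than each of them in WT, by 0.303, 0.306 and 0.144.

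The regions were then compared with one another within each library. In WT the *H19* ICR and the IG-DMR differed by -0.00279 (interval -0.0701 to 0.0587), and the *Zdbf2* DMR was lower than the IG-DMR by 0.162 (0.0960 to 0.227, exact test adjusted over 18 comparisons, adjusted exact p = 5.03e-06). The *Zdbf2* DMR was also lower than the *H19* ICR in WT, by 0.159 (adjusted exact p = 1.01e-04), a difference that was 0.0657 and not significant (adjusted exact p = 0.491) with sites at least 80 bp apart. In *Dnmt3L* KO, the IG-DMR was higher than the *Zdbf2* DMR by 0.244 (0.138 to 0.337, adjusted exact p = 2.04e-05), which passed the threshold under both choices of spaced sites. The *H19* ICR was lower than the IG-DMR by 0.228 in that library (adjusted exact p = 4.03e-04), but this was no longer significant with sites at least 80 bp apart (-0.178, adjusted exact p = 0.249). Between the *H19* ICR and the *Zdbf2* DMR the difference was 0.0161 (-0.0827 to 0.123, adjusted exact p = 0.881).

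The 10 kb on each side of each region were then examined in the same libraries. The *Zdbf2* DMR lay in weakly methylated surroundings, which had a level of 0.271 in WT, 0.344 in *Pld6* KO and 0.0402 for *Dnmt3L* KO. It was higher than these by 0.428 in WT (adjusted exact p = 2.66e-38) and by 0.422 in *Pld6* KO (adjusted exact p = 2.71e-59). The remaining difference of 0.0919 in *Dnmt3L* KO (adjusted exact p = 0.00206) was not significant with sites at least 80 bp apart (adjusted exact p = 0.248). The downstream flank contains the unmethylated, CpG-rich *Zdbf2* promoter. Without flank sites within 500 bp of a gene start, the DMR was higher by 0.355 in WT, 0.337 in *Pld6* KO and 0.0784 for *Dnmt3L* KO.

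The IG-DMR was higher than its flanks by 0.121 in WT (flank level 0.741, adjusted exact p = 8.10e-05) and by 0.109 in *Pld6* KO (0.792, adjusted exact p = 3.62e-06). In *Dnmt3L* KO the IG-DMR at 0.376 and its flanks at 0.422 differed by -0.0461 (interval -0.142 to 0.0529, adjusted exact p = 0.402). The flank on the side of *Meg3* ends 1 kb from its start. In the step at 1 to 1.5 kb, 7 of 38 calls were methylated in WT and 2 of 40 in *Dnmt3L* KO. The flank upstream of the IG-DMR was at 0.807 in WT and 0.495 in *Dnmt3L* KO, and that on the side of *Meg3* at 0.665 and 0.362.

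The *H19* ICR was compared with its flanks in the same way. It was higher than its flanks by 0.0840 in WT (flank level 0.775, adjusted exact p = 0.0139) and by 0.119 in *Pld6* KO (0.764, adjusted exact p = 1.07e-05), but in *Dnmt3L* KO it was below them, with a difference of -0.238 (flank level 0.386, adjusted exact p = 5.16e-05). The WT and *Pld6* KO differences were -0.00973 and 0.00693 when flank sites within 500 bp of a gene start were left out, since the flank takes in the weakly methylated *H19* promoter. With sites at least 80 bp apart, the *Dnmt3L* KO difference was -0.158 and not significant (adjusted exact p = 0.248). The flank in *Dnmt3L* KO was at 0.542 upstream of the ICR and at 0.329 on the side of *H19*.

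The *Meg3* promoter was lower than its flanks in all 3 libraries. The differences were -0.416 in WT, -0.419 in *Pld6* KO and -0.230 for *Dnmt3L* KO (adjusted exact p = 7.88e-18, 1.46e-26 and 2.24e-05). In *Dnmt3L* KO the flank was at 0.362 upstream of the promoter but at 0.06 downstream of it. The upstream flank is the same stretch as the flank of the IG-DMR on the side of *Meg3*.

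**Figure D2:**
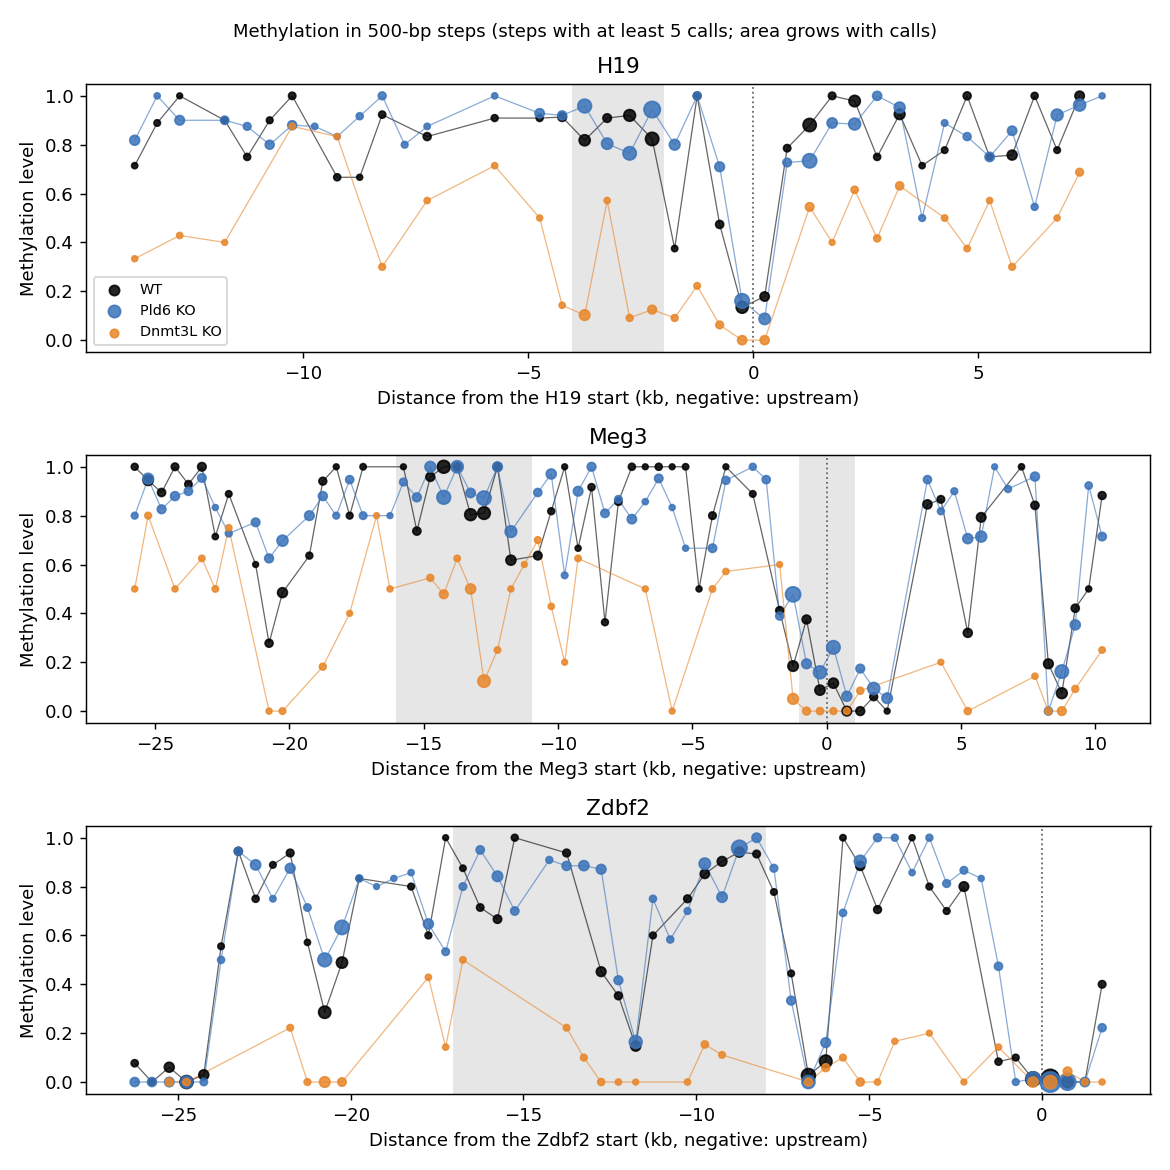
Methylation level (y axis, fraction) in 500-bp steps against the distance from each gene start (x axis, kb, negative values upstream) in the 3 libraries, for steps with at least 5 calls. The area of a point grows with its calls, shading marks the regions and the dotted line the start. The IG-DMR dips to 0.123 in *Dnmt3L* KO in the step from 12.5 to 13 kb upstream, and the *Zdbf2* DMR has a step at 0.147 in WT.

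The regions were also divided into 36 steps of 500 bp. In *Pld6* KO, 1 of the 29 steps with at least 10 calls in both libraries had a level at least 0.3 below WT, that is 3.45%, against 2.52% of all such 500-bp tiles of the chromosomes. This step was at 15 to 15.5 kb upstream of *Zdbf2*, with 11 of 11 calls methylated in WT and 14 of 20 in *Pld6* KO. In *Dnmt3L* KO, 10 of 13 steps were lower by at least 0.3, that is 76.9%, against 61.8% of all tiles. These were 3 of 3 steps at the *H19* ICR, 4 of 4 at the IG-DMR, 2 of 2 at the *Zdbf2* DMR and 1 of 4 at the *Meg3* promoter. Since tiles that are weakly methylated in WT cannot fall by that much, both shares depend on the WT level.

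At the *H19* ICR all 4 steps were highly methylated in WT, with levels between 0.818 and 0.920. In *Pld6* KO the outer steps were at 0.958 and 0.944, and the middle steps at 0.804 and 0.765. In *Dnmt3L* KO the steps had 4 of 39, 4 of 7, 1 of 11 and 3 of 24 calls methylated, going from the far end toward *H19*. The step at 3 to 3.5 kb was thus the highest, but rests on 7 calls.

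Between the ICR and *H19* the methylation was uneven. In WT, 3 of 8 calls were methylated at 1.5 to 2 kb upstream, 15 of 15 at 1 to 1.5 kb and 9 of 19 at 0.5 to 1 kb. In *Pld6* KO these steps had 32 of 40, 18 of 18 and 22 of 31, and in *Dnmt3L* KO 1 of 11, 2 of 9 and 1 of 16. In the 500 bp upstream of the start, 7 of 52 calls were methylated in WT, 13 of 81 in *Pld6* KO and 0 of 27 in *Dnmt3L* KO. In the 500 bp downstream it was 5 of 28, 4 of 46 and 0 of 26. The *H19* promoter was therefore low in each library.

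The IG-DMR was uneven in *Dnmt3L* KO. Its most CpG-rich step, 12.5 to 13 kb upstream of *Meg3* with 34 CpG sites, had 7 of 57 calls methylated in *Dnmt3L* KO, a level of 0.123, against 47 of 58 (0.810) in WT and 68 of 78 (0.872) in *Pld6* KO. The steps on its distal side were higher, with 17 of 34 calls at 13 to 13.5 kb, 11 of 23 at 14 to 14.5 kb and 6 of 11 at 14.5 to 15 kb. All these steps were at 0.804 or higher in WT. The 100 bases shown above lie in the low step, and had 3 of 20 calls methylated in *Dnmt3L* KO and 14 of 14 in *Pld6* KO, but only 2 calls in WT, 1 of them methylated. The *Pld6* KO calls were 1 per site at neighbouring sites, and the *Dnmt3L* KO calls at most 3 per site. Very few reads may thus lie behind the counts of all 3 libraries. The steps were picked out after their values were seen, and their difference was given no test.

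In the *Zdbf2* DMR the WT methylation was interrupted. At 11.5 to 12 kb upstream, a step with 19 CpG sites had 5 of 34 calls methylated in WT and 10 of 61 in *Pld6* KO, levels of 0.147 and 0.164. The neighbouring step at 12 to 12.5 kb had 6 of 17 calls methylated in WT and 10 of 24 in *Pld6* KO. On the side of *Zdbf2*, the step at 8.5 to 9 kb had 32 of 34 calls methylated in WT and 91 of 95 in *Pld6* KO. That step also holds 19 CpG sites. The 100 bases shown above lie across its border at 8.5 kb, and had 12 of 14 calls methylated in WT and 41 of 41 in *Pld6* KO. The highest step of the DMR in *Dnmt3L* KO, at 16.5 to 17 kb, had 4 of 8 calls methylated, and no other step with at least 5 calls was above 0.222.

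At the *Meg3* promoter the residual methylation was on the upstream side in WT. The steps from upstream to downstream had 9 of 24, 3 of 35, 4 of 35 and 0 of 30 calls methylated in WT. In *Pld6* KO they had 6 of 31, 10 of 63, 18 of 69 and 2 of 33. In *Dnmt3L* KO none of 17, 13, 11 and 10 calls was methylated. The 100 bases shown above had 0 of 26 calls methylated in WT, 0 of 18 in *Pld6* KO and 0 of 3 in *Dnmt3L* KO.

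**Figure D3:**
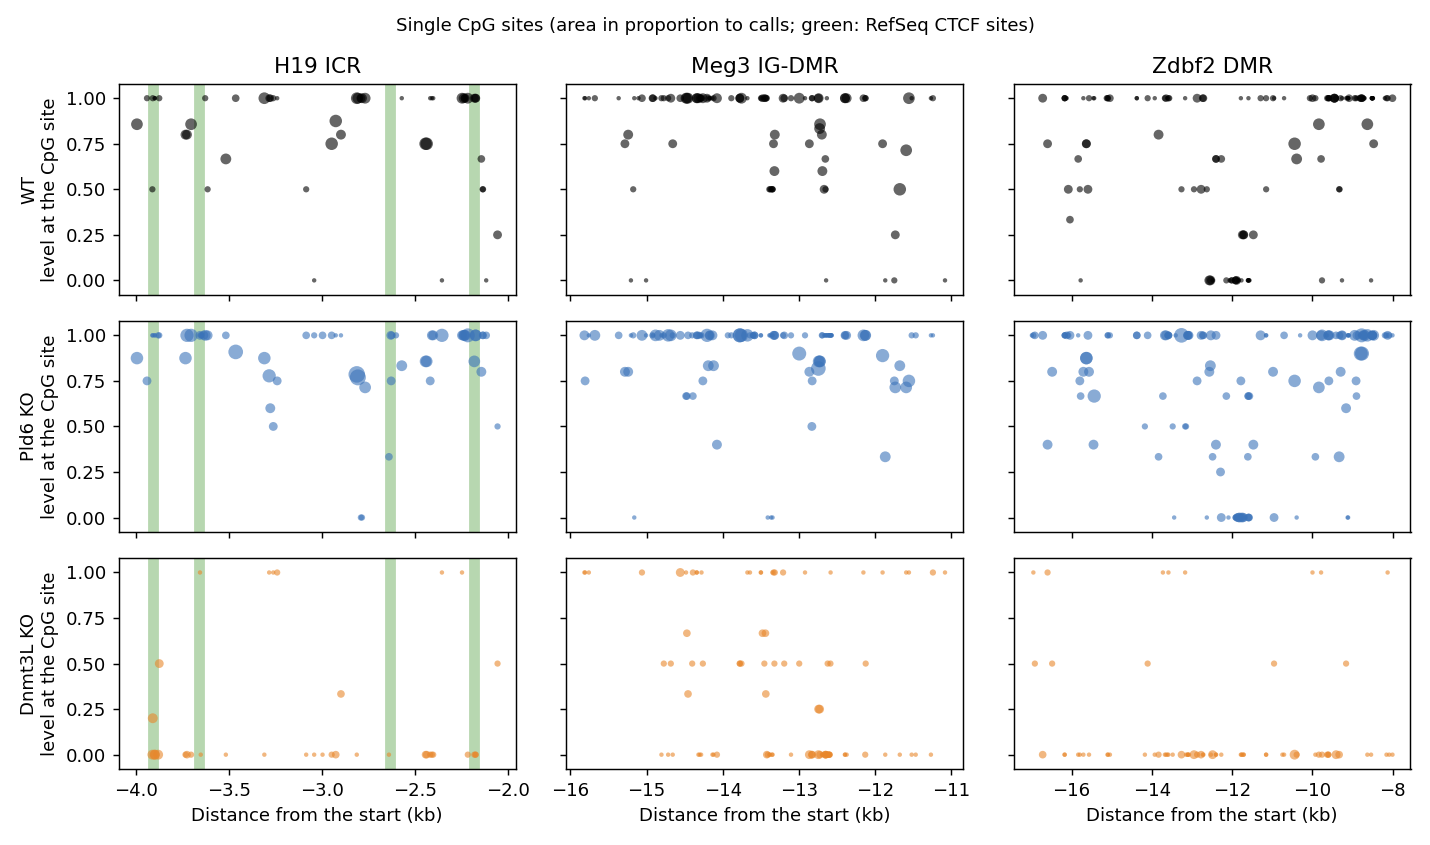
Level at each CpG site with calls (y axis, fraction) against the distance from the gene start (x axis, kb, negative values upstream) in the *H19* ICR, the IG-DMR and the *Zdbf2* DMR, with 1 row of panels per library. The area of a point is in proportion to its calls, and green bands mark the CTCF sites of RefSeq. Most points lie at 1 in WT and *Pld6* KO, and at 0 in *Dnmt3L* KO at the *H19* ICR (26 of 36 sites) and the *Zdbf2* DMR (58 of 71).

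At single sites, the *H19* ICR had calls at 49 sites in WT, of which 29 were fully methylated and 3 had no methylated call. In *Dnmt3L* KO this was turned round, with 6 fully methylated and 26 unmethylated sites among 36. The IG-DMR had 65 fully methylated and 6 unmethylated sites among 96 in WT, and 26 and 42 among 89 in *Dnmt3L* KO. The *Zdbf2* DMR had 77 and 24 among 130 in WT, and 8 and 58 among 71 in *Dnmt3L* KO. In *Pld6* KO, the fully methylated and unmethylated sites were 37 and 2 of 60, 84 and 4 of 113, and 79 and 22 of 142. Many sites rest on a single call, among them 43 of the 89 sites of the IG-DMR in *Dnmt3L* KO.

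The CTCF sites of the *H19* ICR were then examined. RefSeq annotates 4 of them in the region, with 15 CpG sites in all. In WT, 17 of their 18 calls were methylated, 0.944 (0.742 to 0.990), and in *Pld6* KO 45 of 49, 0.918 (0.808 to 0.968). In *Dnmt3L* KO it was 2 of 34, 0.0588 (0.0163 to 0.191), and 25 of these 34 calls were at m1, where 1 was methylated. The rest of the ICR had a level of 0.213 in *Dnmt3L* KO, 10 of 47 calls, which did not differ significantly from the CTCF sites (Fisher's exact test, two-sided, p = 0.0644). The m2 and m3 sites had no calls in WT. Of the calls in the capital letters of the 3 matches above, 10 of 10 were methylated in WT, 26 of 27 in *Pld6* KO and 0 of 14 in *Dnmt3L* KO. H19 match 2 had no such calls in WT or *Dnmt3L* KO, so that these counts cover only H19 match 1 and H19 match 3 in those libraries. In *Dnmt3L* KO they were 0 of 4 and 0 of 10.

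Both motifs were counted against all windows of the same length in the genome, whatever their number of CpG sites. Both contain CpG, and the part of CpG richness in the shares below was not tested. The *H19* ICR held 3 matches of CGCGNGGNG, while 1.33% of all 2-kb windows held any and 0.112% held at least as many. The IG-DMR held 1 match (3.18% of 5-kb windows held any), and the *Meg3* promoter and the *Zdbf2* DMR held none. TGCCGC, on either strand, matched 5 times in the *H19* ICR (10.8% of windows held any, 0.0283% as many) and 9 times in the IG-DMR (23.5% and 0.00813%). It matched 1 time in the *Meg3* promoter and 2 times in the *Zdbf2* DMR, where 36.5% of 9-kb windows held any. The CpG of this motif was methylated in 6 of 7 calls in WT and 1 of 8 in *Dnmt3L* KO at the *H19* ICR, and in 18 of 21 and 2 of 11 at the IG-DMR. In *Pld6* KO all 17 calls at the *H19* ICR and all 20 at the IG-DMR were methylated. The 2 motifs are not separate at the *H19* ICR. In H19 match 1 and H19 match 3 above, TGCCGC overlaps the CTCF core and shares a CpG with it. These shared sites had 4 of 4 and 1 of 1 calls methylated in WT, and 0 of 2 and 0 of 5 in *Dnmt3L* KO. Most calls of this motif there are thus also calls of the CTCF core. A match is a string of letters and does not show that a protein was bound.

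To see how unusual the regions are, they were placed among all windows of their length with at least 20 calls in each library. In WT the *H19* ICR was near the middle, with 45.5% of 300342 windows below it, as was the IG-DMR, with 46.2% of 328179. Of the 248019 windows of 9 kb, 23.1% were below the *Zdbf2* DMR. CpG-rich sequence is mostly unmethylated, however. Among windows with at least as many CpG sites, the WT median was 0.0304 for the length of the *H19* ICR, 0.124 for the IG-DMR and 0.354 for the *Zdbf2* DMR, and 96.2%, 96.6% and 76.6% of windows were below the regions.

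In *Dnmt3L* KO the regions ranked differently among the windows. The *H19* ICR, at 0.148, had 26.2% of windows below it (median 0.343), the *Zdbf2* DMR, at 0.132, had 17.3% (median 0.294), and the IG-DMR, at 0.376, had 57.6% (median 0.333). In the windows that were at least as rich in CpG sites and had a WT level of at least 0.7, the *Dnmt3L* KO medians were 0.367, 0.445 and 0.391 for the lengths of the *H19* ICR, the *Zdbf2* DMR and the IG-DMR. The share of these windows below the region was 23.7% of 803, 5.67% of 3156 and 46.8% of 380. The *Zdbf2* DMR itself, at 0.699 in WT, lies just under that limit, so that its share compares it with windows that started from higher WT levels. The IG-DMR was near the middle of its windows. The decrease from WT to *Dnmt3L* KO was larger at the *H19* ICR than in 92.2% of all 2-kb windows, and larger at the IG-DMR than in 56.5% and at the *Zdbf2* DMR than in 69.7% of windows of their length.

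**Figure D4:**
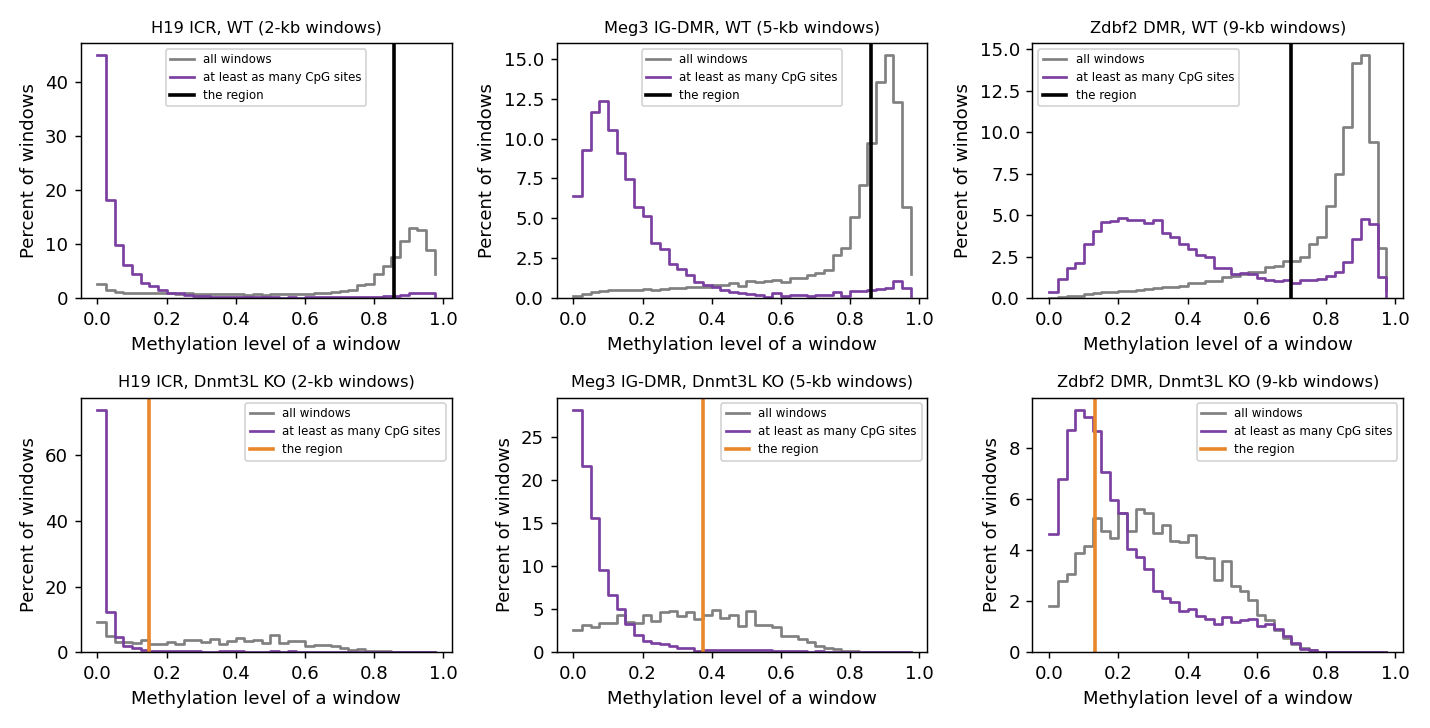
Distribution of methylation levels (x axis, fraction) over windows of the length of each region (y axis, percent of windows per bin), in WT and *Dnmt3L* KO. Grey lines are all windows, purple lines those with at least as many CpG sites, and the vertical line is the region. In *Dnmt3L* KO, the *H19* ICR and the *Zdbf2* DMR lie below the median of all windows, and the IG-DMR above it.

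Promoters of genes in these clusters were examined within 500 bp on either side of the start. In the *H19* cluster, the *Igf2* promoter had 0 of 51 calls methylated in WT, 0 of 134 in *Pld6* KO and 1 of 40 in *Dnmt3L* KO. The promoter of *Ins2*, an insulin gene, was methylated at 0.906 in WT (29 of 32 calls), 0.828 in *Pld6* KO (24 of 29) and 0.750 for *Dnmt3L* KO (9 of 12). At *Nctc1*, a noncoding RNA gene beyond *H19*, the levels were 0.935, 0.943 and 0.364, the last from 11 calls.

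In the *Meg3* cluster, the promoters of *Dlk1*, a Notch ligand gene, and *Dio3*, which encodes a deiodinase of thyroid hormone, were at 0.0142 or lower in all libraries. *Rtl1*, a gene derived from a retrotransposon, had 21 of 23 calls methylated in WT, 15 of 15 in *Pld6* KO and 5 of 8 in *Dnmt3L* KO. The promoter of *Rian*, a noncoding RNA gene, had 8 of 9, 16 of 18 and 3 of 5 calls methylated. *Mirg*, a host gene of microRNAs, had 47 of 49, 58 of 65 and 15 of 21. Between 5 and 21 calls were available at these distal promoters in *Dnmt3L* KO, and most of them were methylated.

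In the *Zdbf2* cluster, the *Zdbf2* promoter had 3 of 208 calls methylated in WT, 1 of 242 in *Pld6* KO and 0 of 100 in *Dnmt3L* KO. The promoter of *Adam23*, which encodes a membrane protein, was at 0.0110 or lower in all libraries. At *Gpr1*, a receptor gene on the other side of the DMR, 11 of 54 calls were methylated in WT, 14 of 59 in *Pld6* KO and 0 of 23 in *Dnmt3L* KO. The DMR of this cluster, at 0.699 in WT and 0.766 in *Pld6* KO, thus lay between promoters with less methylation.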

How the data were processed

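Spermatogonial DNA was sequenced after bisulfite treatment as single-end 100-bp reads with adaptors added after conversion. The authors trimmed 6 nucleotides at the start and 15 at the end of the reads and mapped the rest uniquely to mm10 with Bismark (version not given in the sources used here). Removal of duplicate reads is not stated. For each CpG site the authors deposited counts of methylated and unmethylated calls and the level as a fraction. Calls were pooled by region with Python 3.11.15, numpy 2.4.6, scipy 1.17.1 and pandas 2.3.3, and no coverage minimum was set. Coordinates, gene models and CpG sites come from the RefSeq annotation and the sequence of GRCm38, the assembly of mm10. Every listed site on a chromosome was a CpG of it, and 8012, 9238 and 6031 sites of WT, *Pld6* KO and *Dnmt3L* KO on unplaced sequences or the mitochondrial genome were left out of regions.

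The members and gene lists were chosen with earlier results of these data known. The named genes are *H19*, *Meg3*, *Zdbf2*, listed genes of their clusters and *Rasgrf1*. The rule took the start of the curated transcript with the lowest accession, but for *Meg3* this start lies 4402 bp downstream of the one that 2 of the 3 curated transcripts share, and the shared start was used. Scripts were tested on simulated calls. Alternatives changed the coverage limits, the pooling, the bounds, the flank, the spacing of sites and the size, offset, call minimum and threshold of tiles.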

Additional observations from a re-analysis of the deposited data

How the results depend on the processing

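No paired analysis was possible because 1 file per genotype, treated as 1 library, was analysed, and no replicate could be left out. Of 105 alternative levels, 85 stayed within the 95% interval of the level reported. Of 105 alternative differences, 90 stayed on their side of the threshold or, where not tested, within the interval of the difference reported. Among these, WT minus *Pld6* KO changed sign without passing the threshold with sites covered in all libraries, to 0.0549 at the *Meg3* promoter and 0.00719 at the *Zdbf2* DMR. The WT minus *Dnmt3L* KO difference of the *H19* ICR (0.493 to 0.792), the IG-DMR (0.249 to 0.633) and the *Zdbf2* DMR (0.567 to 0.649) kept its direction, and its side of the threshold wherever it was tested. Why the following values moved was not tested. The spaced sites hold fewer calls, and the spacing of at least 80 bp, the flank without gene starts and the other *Meg3* start were chosen after seeing the data. With at least 3 calls per site, the *Dnmt3L* KO level was 0.250 at the IG-DMR and 0 at the *Zdbf2* DMR and the WT level of the *Meg3* promoter 0.0750. The differences were then -0.119 (WT minus *Pld6* KO, passing the threshold), 0.0750 (WT minus *Dnmt3L* KO) and 0.194 (*Pld6* KO minus *Dnmt3L* KO), both not passing, at the *Meg3* promoter, and -0.127 (WT minus *Pld6* KO, passing) at the *Zdbf2* DMR. As a mean of site levels, the *Meg3* promoter was at 0.202 in WT, with differences of 0.0354 to *Pld6* KO and 0.202 to *Dnmt3L* KO. With 1 site per 80 bp, levels were 0.346 (*H19* ICR, *Dnmt3L* KO), 0.466 (IG-DMR, *Dnmt3L* KO) and 0.726 (*Zdbf2* DMR, *Pld6* KO). The calls lost were *Meg3* promoter WT minus *Dnmt3L* KO (0.152), the *H19* ICR against its flank in WT (0.0260), *Pld6* KO (0.0722) and *Dnmt3L* KO (-0.128), the *Zdbf2* DMR against its flank in *Dnmt3L* KO (0.0727), *H19* ICR minus *Zdbf2* DMR in WT (0.123), and, in *Dnmt3L* KO, *H19* ICR minus IG-DMR (-0.119) and *Meg3* promoter minus *Zdbf2* DMR (-0.143). With sites at least 80 bp apart, levels were 0.786 and 0.280 (*H19* ICR, WT and *Dnmt3L* KO) and 0.458 (IG-DMR, *Dnmt3L* KO), and the calls lost were *Meg3* promoter WT minus *Dnmt3L* KO (0.15) and *Pld6* KO minus *Dnmt3L* KO (0.2), *H19* ICR against flank in WT, which turned to -0.0251, and *Dnmt3L* KO (-0.158), *Zdbf2* DMR against flank in *Dnmt3L* KO (0.0655), *H19* ICR minus *Zdbf2* DMR in WT (0.0657), and in *Dnmt3L* KO *H19* ICR minus IG-DMR (-0.178) and *Meg3* promoter minus *Zdbf2* DMR (-0.15). Extending the regions by 500 bp gave 0.269 for the *Meg3* promoter in *Pld6* KO and WT minus *Pld6* KO of -0.0553 at the IG-DMR and -0.145 at the *Meg3* promoter, both passing. Shortening them gave *H19* ICR levels of 0.917, 0.781 and 0.278 in WT, *Pld6* KO and *Dnmt3L* KO, so that WT minus *Pld6* KO turned to 0.136, and 0.1 for *Meg3* promoter WT minus *Dnmt3L* KO, not passing. With sites covered in all libraries, levels were 0.104 (*Meg3* promoter, *Pld6* KO) and 0.758 (*Zdbf2* DMR, WT), and *Meg3* promoter *Pld6* KO minus *Dnmt3L* KO was 0.104, not passing. With the lowest-accession *Meg3* start, the region at the IG-DMR distance was at 0.786 in WT and 0.537 in *Dnmt3L* KO, the promoter at 0.667 in WT and 0.833 in *Pld6* KO, and their difference at -0.167, passing. With 5 kb of flank, the *Zdbf2* DMR in *Dnmt3L* KO differed by 0.0686, not passing, and without flank sites near a start the *H19* ICR differed by -0.00973 in WT, a turned sign, and 0.00693 in *Pld6* KO. At a minimum of 5 calls, 18 of 23 steps were lower in *Dnmt3L* KO, at 20 calls 5 of 5, and in *Pld6* KO 0 steps were lower at 20 calls, at a decrease of 0.4, in 1000-bp tiles and in tiles shifted by 250 bp.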

Other observations

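Other steps near the regions had no methylated calls in *Dnmt3L* KO, with calls methylated in part in the other libraries. They were chosen after their values were seen, and are given with no test. At 20.5 to 21 kb upstream of *Zdbf2*, in the flank of the DMR, 16 of 56 calls were methylated in WT, 36 of 72 in *Pld6* KO and 0 of 39 in *Dnmt3L* KO. The next step, at 20 to 20.5 kb, had 22 of 45, 50 of 79 and 0 of 21 methylated calls. Upstream of *Meg3*, the step at 20 to 20.5 kb had 16 of 33, 30 of 43 and 0 of 9.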
